A study of Bos taurus with 12 samples.

Results

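The endometrium of the uterine horn beside the corpus luteum (CL side) was compared with that of the opposite horn (non-CL side) in autumn, on 6 of the 12 arrays of the study. The 6 arrays were chosen by their titles, 3 labelled as CL side and 3 as non-CL side in autumn. Of the 15208 non-control probes on the array, 12105 could be tested between the sides, and they covered 4951 genes with a symbol. All samples were endometrial biopsies of Japanese-Black cows at cycle day 15, and the other 6 arrays held the same sides in summer. No treatment is named for any group, no age is stated for the cows, and each sample was whole tissue of mixed cell types. The labels number the samples 1 to 3 within each side, but do not say that the numbers stand for separate cows. The p-values thus measure only the spread between samples, which the main fit pooled over all 12 arrays. In whole tissue, fewer cells of a type and less RNA per cell cannot be told apart.

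The corpus luteum is the ovarian body that forms after ovulation and secretes progesterone, which prepares the endometrium for a pregnancy. Progesterone reaches the adjacent horn both through the general circulation and through local vessels between ovary and uterus, and the bovine embryo normally implants in that horn. Late in the cycle of a non-pregnant cow the endometrium gains oxytocin receptors and releases prostaglandin F2 alpha, which ends the life of the corpus luteum.

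Values are log2 signals relative to the array's 75th percentile of non-control probes, which is 0 on this scale, and differences are CL side minus non-CL side. On the 6 autumn arrays that percentile was 3705 to 4361 intensity units, 79.2% to 83.9% of probes were well above background, and any pair of arrays correlated at 0.974 to 0.990. CL-side replicate 1 stood apart at low signals, with 2092 processed signals at or below 0 against 929 to 1329 on the other 5 arrays. Replicate 1 of both sides lay on 1 slide, and replicates 2 and 3 of both sides on another. Markers of the labelled tissue were present, since all 6 arrays had EPCAM, of epithelial adhesion, and VIM, of mesenchymal filaments, well above background.

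The genes described include ones of matrix, secretion, cell division and lymphocytes, and a probe of each kind is shown to say what was measured. Each is the 60-base oligo of the array design as the scanner files list it, in lower case throughout because no stretch of it is singled out.
SERPINA14: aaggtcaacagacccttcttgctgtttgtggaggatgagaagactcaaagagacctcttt
CENPF: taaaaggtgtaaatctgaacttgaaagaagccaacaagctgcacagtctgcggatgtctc
PRF1: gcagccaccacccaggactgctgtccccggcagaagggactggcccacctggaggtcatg
COL1A1: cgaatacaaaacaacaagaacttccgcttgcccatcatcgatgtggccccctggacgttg

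No gene passed the threshold between the horns in autumn. The 12 genes with the smallest p on the higher side were of several functions and included CTHRC1, FN1 and OGN of the matrix, CENPF of mitosis and the uterine serpin SERPINA14. Of 12105 probes, 0 (0.0%) passed an adjusted p of 0.05 in limma, and the smallest adjusted p was 1. An unadjusted p under 0.05 was reached by 229 probes against 605 expected by chance, and by 479 without CL-side summer replicate 2. Of the 229, 101 (0.834% of all probes) were higher and 128 (1.06%) were lower on the CL side. The split depended on the source of low signals. It was 103 higher and 51 lower after normexp background correction, and 229 higher and 39 lower with the authors' deposited log2 values. The median difference over all genes with a symbol was 0.06 with the authors' values, against -0.03 from the scanner signals.

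Among genes with a symbol, 52 (1.05%) were higher and 47 (0.949%) lower with an unadjusted p under 0.05. With same-numbered samples as pairs, which the labels do not state, the counts were 86 (1.74%) and 129 (2.61%), again with 0 probes past the adjusted threshold (smallest limma adjusted p 0.984). The deviations of same-numbered samples correlated only weakly, at 0.29, 0.14 and 0.38. The 3 CL-side values lay above all 3 non-CL values for 120 genes (2.42%) and below them for 264 (5.33%). Of the 52 higher genes, 51 were measured on all 6 arrays. For 41 of them CL-side replicate 3 lay nearest to the non-CL mean, and for 40 CL-side replicate 2 lay farthest. In 21 of these genes replicates 1 and 2 of the CL side lay above every non-CL array and replicate 3 did not. These counts describe genes that the same contrast chose.

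CL-side replicate 3 decided whether any probe passed. Without it, 6 probes (0.0496%), all higher on the CL side, passed limma's adjusted threshold, and 466 had an unadjusted p under 0.05. The 3 with a symbol were CENPF, CTHRC1 and CDCA3. The 3 others, named here after their values were seen, have no symbol, and the scanner files describe one of them as similar to LEK1. Probes without a symbol need not stand for genes other than those named. Without CL-side replicate 2 the unadjusted count was 134, and without non-CL replicate 1 it was 421, with 0 probes past the adjusted threshold in both. CL-side replicate 3 lay nearest to the non-CL mean in 41 of 51 higher genes, so leaving it out widens such differences by construction. The adjusted p-values without it, here and below, are therefore no separate support for these genes.

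CTHRC1, a secreted protein that associates with collagen-rich matrix, had the smallest p among the higher genes. Its log2 signal was -1.77, -1.72 and -3.90 on CL-side replicates 1 to 3 and -4.06, -4.64 and -4.39 on the non-CL side. All 3 CL-side values lay above the non-CL values, but replicate 3 lay close to them. The mean was -2.46 ± 1.24 (SD, n = 3) against -4.36 ± 0.29 (SD, n = 3), a difference of 1.90 ± 0.50 (SE), or 3.73-fold (limma unadjusted p = 0.00301, adjusted p = 1). Without CL-side replicate 3 the difference was 2.62 (limma adjusted p = 0.0135).

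SERPINA14, a serpin that uterine glands secrete under progesterone, had the largest difference of the 52 higher genes. Its log2 signal was 2.79, 1.48 and -0.64 on the CL side and -2.50, -2.80 and -0.10 on the non-CL side. Replicate 3 differed from the others in both horns, low on the CL side and high on the non-CL side, so that the groups overlapped. The means were 1.21 ± 1.73 (SD, n = 3) and -1.80 ± 1.48 (SD, n = 3). The difference was 3.01 ± 0.89 (SE), an 8.06-fold higher mean (limma unadjusted p = 0.00648, adjusted p = 1), and ranged from 1.87 on the slide of replicates 2 and 3 to 5.29 on that of replicate 1.

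The other genes with the smallest p on the higher side were spread over several functions. PRF1, the pore-forming perforin of cytotoxic lymphocytes, had -3.51, -3.18 and -3.43 on the CL side and -4.99, -3.89 and -5.38 on the non-CL side, a difference of 1.38 ± 0.41 (SE) with no overlap. NEIL3, a DNA glycosylase, differed by 1.65 ± 0.48 (SE), and its non-CL values lay at or near the floor of -7.28 set on low signals. It was 0.95 without CL-side replicate 2, 0.86 after normexp correction, 0.98 with the authors' values and 0.31 with the floor raised to -5. PRKG1, a protein kinase that cyclic GMP activates, lay at -2.99, -2.98 and -3.03 against -3.92, -3.53 and -3.45. This gave a difference of 0.63 ± 0.21 (SE) with a CL-side spread of 0.02 (SD, n = 3). TMSB10, an actin-binding thymosin, differed by 0.51 ± 0.17 (SE), GNG2, a G protein gamma subunit, by 0.98 ± 0.31, ACAT2, an acetyl-CoA acetyltransferase, by 0.57 ± 0.16 and SERF1B by 0.62 ± 0.21. The difference of ACAT2 was 0 with a floor raised to -5, since all its values lie below that. For each of these 7 genes limma's adjusted p was 1.

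**Figure D1:**
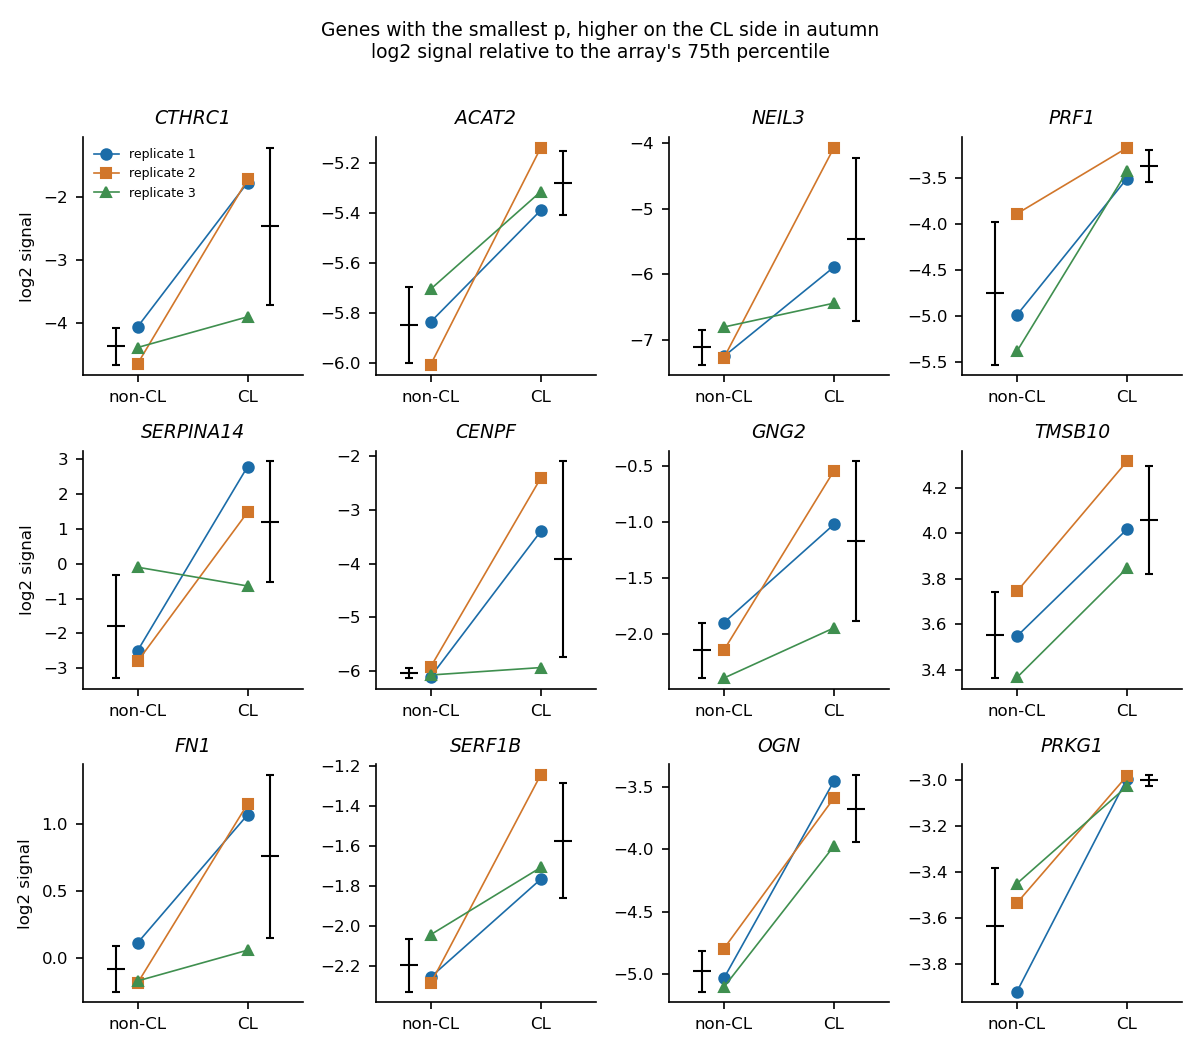
Log2 signal on each autumn array for the 12 genes with the smallest unadjusted p among those higher on the CL side, with the sides on the horizontal axis, lines joining same-numbered samples and black bars for the mean ± SD of 3 arrays. Each panel has its own vertical scale. In CTHRC1, CENPF and FN1, CL-side replicate 3 sits near the non-CL values (CENPF -5.93 against -6.10 to -5.92), whereas in PRKG1 and OGN all 3 CL-side values sit together above them.

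Genes of the extracellular matrix lay mostly higher on the CL side, without any passing the adjusted threshold. Of 36 tested genes, 32 had a positive difference, 17 of them in all 3 pairs, and the median was 0.45, beside -0.03 over all genes. Of all 4951 genes, 2205 had a positive difference, 482 of them in all 3 pairs. The median was positive in each pair, at 0.36, 0.70 and 0.31 for replicates 1, 2 and 3. An unadjusted p under 0.05 was reached by 6 members on the higher and 0 on the lower side, against 1.05% and 0.949% of all genes, and 8 members lay above all non-CL arrays, against 2.42%.

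FN1, the adhesive glycoprotein fibronectin, had a log2 signal of 1.07, 1.15 and 0.06 on the CL side and 0.11, -0.19 and -0.17 on the non-CL side. Replicates 1 and 2 of the CL side were high, and replicate 3 lay among the non-CL values. The difference was 0.84 ± 0.28 (SE; limma unadjusted p = 0.0127, adjusted p = 1), and another FN1 probe gave 1.03 ± 0.41. OGN, the small leucine-rich proteoglycan osteoglycin, had -3.46, -3.59 and -3.98 against -5.03, -4.80 and -5.10. Here the groups stood apart on every array, with a difference of 1.30 ± 0.44 (SE; limma unadjusted p = 0.0134, adjusted p = 1), which was 0.85 after normexp correction. COL1A1, which encodes a type I collagen chain, had -1.20, -1.84 and -2.31 against -2.42, -3.08 and -2.84. Its groups did not overlap, although CL-side replicate 3 lay close to non-CL replicate 1, and the difference was 1.0 ± 0.39 (SE; limma unadjusted p = 0.0283, adjusted p = 1).

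FMOD, fibromodulin, which binds collagen fibrils, differed by 0.58 ± 0.21 (SE). The remaining members with an unadjusted p under 0.05, chosen after their values were seen, were the collagen crosslinking enzyme gene LOX, at 0.73 ± 0.32 (SE), and the periostin gene POSTN, at 1.07 ± 0.47. LOX lay between -0.90 and -0.82 on all CL-side arrays, while POSTN was high on CL-side replicates 1 and 2 only, at -3.92 and -3.03 against -5.32 on replicate 3. COL3A1, of type III collagen, and DCN, the proteoglycan decorin, also chosen after their values were seen, differed by 0.46 ± 0.45 (SE) and 0.16 ± 0.24. Both lay above the non-CL values on all 3 CL-side arrays.

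Stroma markers moved with the matrix list, with which they share 6 tested genes. Of 17 markers, 15 had a positive difference, with a median of 0.38 and pair medians of 0.42, 0.78 and 0.28. Of these, 3 had an unadjusted p under 0.05 on the higher side and 0 on the lower side, against 1.05% and 0.949% of all genes, and 6 lay above all non-CL arrays, against 2.42%. VIM, vimentin, had 3.22, 3.82 and 2.87 on the CL side and 2.77, 2.85 and 2.59 on the non-CL side. The CL-side values were all higher, replicate 3 by the least, and the difference was 0.57 ± 0.22 (SE; limma adjusted p = 1). It was 0.31 without CL-side replicate 2. The mean deviation of the 17 markers from their 6-array means was 0.22, 0.42 and -0.01 on the CL side and -0.06, -0.24 and -0.32 on the non-CL side. The part of a changed stroma content in the matrix values was not tested.

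Of 25 matrix proteases and inhibitors, 20 had a positive difference (median 0.18), against 44.5% of all genes. On the higher side 1 had an unadjusted p under 0.05, against 1.05% of all genes, or 4 with the numbers as pairs, against 1.74%. TIMP1, a tissue inhibitor of metalloproteinases, differed by 0.56 ± 0.23 (SE), CTSK, the collagen-degrading cathepsin K, by 0.43 ± 0.20 and MMP1, interstitial collagenase, by 0.87 ± 0.42. The list median rested on CL-side replicate 2, with 0.62 in pair 2, 0.03 and 0.06 in the other pairs and 0.02 without that array. The stroma median was 0.24 without CL-side replicate 2, and the matrix median 0.31.

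**Figure D2:**
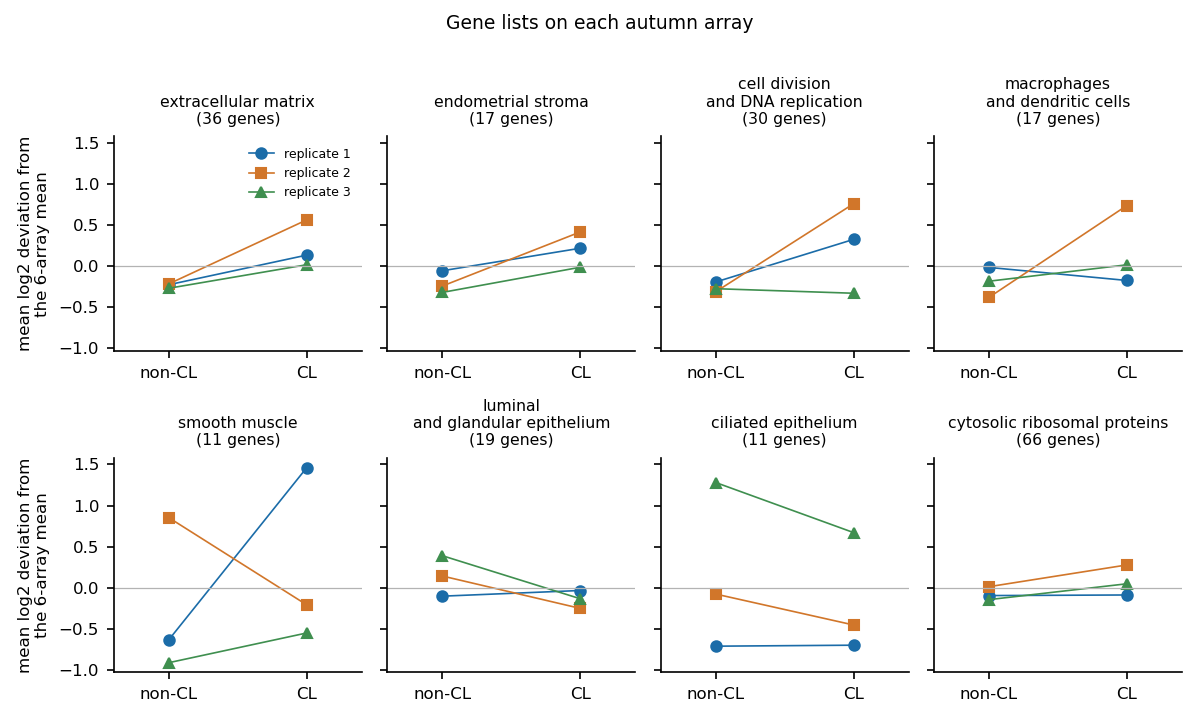
Mean log2 deviation of a list's genes from their means over the 6 autumn arrays (vertical axis) on each array, by side, for 8 gene lists, with lines joining same-numbered samples. Matrix and stroma lie higher on the CL side in every pair, cell division is high on CL-side replicates 1 and 2 (0.33 and 0.76), and smooth muscle is high on CL-side replicate 1 and non-CL replicate 2 (1.46 and 0.85).

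Genes of cell division were high on CL-side replicates 1 and 2 and low on the other 4 arrays. Of 30 tested genes, 25 had a positive difference (median 0.20), and 7 had an unadjusted p under 0.05 on the higher side and 0 on the lower side, against 1.05% and 0.949% of all genes. The mean deviation of the list was 0.33, 0.76 and -0.33 on CL-side replicates 1 to 3 and between -0.31 and -0.19 on the non-CL side. The pair medians were 0.25, 0.43 and -0.11.

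CENPF, a kinetochore protein made before mitosis, had -3.40, -2.41 and -5.93 on the CL side and -6.10, -5.92 and -6.07 on the non-CL side. The CL-side replicates 1 and 2 stood far above the other 4 arrays, which lay between -6.10 and -5.92. The difference was 2.12 ± 0.67 (SE; limma unadjusted p = 0.00959, adjusted p = 1), without CL-side replicate 3 it was 3.12 (limma adjusted p = 0.0135), and without CL-side replicate 2 it was 1.36. CDCA3, which promotes entry into mitosis, had -1.96, -0.64 and -4.38 against -4.46, -4.53 and -4.10. It showed the same order, with CL-side replicate 3 within the non-CL range. Its difference was 2.04 ± 0.71 (SE; limma adjusted p = 1), 3.06 without CL-side replicate 3 (limma adjusted p = 0.0291) and 1.19 without replicate 2.

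AURKB, the mitotic kinase aurora B, differed by 1.15 ± 0.41 (SE), and by 0.72 without CL-side replicate 2. The other 4 members with an unadjusted p under 0.05, chosen after their values were seen, were the cyclin gene CCNB2 at 1.63 ± 0.64, the mitotic kinesin gene KIF20A at 1.39 ± 0.55, CDCA2 at 1.07 ± 0.43 and the spindle protein gene NUSAP1 at 1.25 ± 0.54. All of these genes had their highest value on CL-side replicate 2, and CL-side replicate 3 lay below the non-CL values in KIF20A and among them in CDCA2 and NUSAP1. The direction was not shared by all mitotic genes, since CCNB1, another cyclin gene, had -0.28 and CENPA, the centromeric histone gene, -0.31. Among genes of DNA replication in the list, also named after their values were seen, RRM2, a subunit of ribonucleotide reductase, had 1.90, the helicase genes MCM5, MCM6 and MCM7 had 0.08, 0.28 and 0.03, and CDC45 had -0.51. The list median was 0.41 without CL-side replicate 3 and 0.14 without replicate 2.

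Receptors for the hormones of the cycle had differences in both directions. Of 9 tested receptors and cofactors, 4 had a positive and 5 a negative difference, with a median of -0.10, or 0.15 with the authors' values. PGR, the progesterone receptor, lay at -1.1, -1.1 and -1.01 on the CL side and -1.03, -0.86 and -0.94 on the non-CL side. The groups overlapped, and the difference was -0.12 ± 0.19 (SE; limma unadjusted p = 0.521). ESR1, the estrogen receptor alpha, lay at -7.28 to -6.48 on the 6 arrays and was well above background on 2 of 3 CL-side arrays, so that its difference of -0.10 ± 0.32 (SE) is one between signals close to background. With the authors' values it was 0.46.

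OXTR, the oxytocin receptor, varied widely among the arrays of each side. Its log2 signal was -2.63, -1.31 and -4.65 on the CL side and -2.89, -2.78 and -5.69 on the non-CL side. Replicate 3 was the lowest in both horns, and the CL-side value was the higher in each pair. The difference was 0.92 ± 1.11 (SE; limma unadjusted p = 0.422, or 0.060 with the numbers as pairs). It was -0.03 without non-CL replicate 3, 0.15 without CL-side replicate 2 and 1.82 without CL-side replicate 3. NR2F2, a nuclear receptor of the stroma, had 2.11, 2.37 and 2.14 against 1.84, 1.92 and 1.62. The groups did not overlap, and the difference was 0.41 ± 0.24 (SE; limma unadjusted p = 0.111).

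Genes of prostaglandin synthesis, transport and reception were balanced, with 8 of 18 positive and a median of -0.05 (0.11 with the authors' values). PTGES, which makes prostaglandin E2, had -2.50, -1.33 and -2.22 on the CL side and -2.54, -3.48 and -2.68 on the non-CL side. The CL-side values were all higher, replicate 1 by 0.04, and the difference was 0.89 ± 0.63 (SE; limma unadjusted p = 0.189). PTGS2, the inducible cyclooxygenase, had 0.16, 0.09 and 0.48 against 1.5, -0.81 and 1.82, and differed by -0.59 ± 0.65 (SE), or by -0.10 without non-CL replicate 3. The CL-side values lay together inside the wide non-CL range. No member of this list or of the receptors had an unadjusted p under 0.05. With the numbers as pairs 1 lower gene of this list (PTGES2) and 1 higher receptor gene (NR2F2) did, against 2.61% lower and 1.74% higher of all genes. PTGES2 was dim, at -7.19, -6.32 and -6.45 against -6.14, -5.89 and -5.86. Its difference of -0.69 ± 0.50 (SE) was -0.19 after normexp correction, 0 with the floor raised to -5 and 0.31 with the authors' values.

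Uterine secretions and genes known from the luteal phase did not share a direction. Of 23 tested genes, 11 had a positive difference (median -0.08), and SERPINA14 was the only one with an unadjusted p under 0.05. SPP1, the adhesive secreted protein osteopontin, had -0.27, 0.91 and -2.81 on the CL side and -0.79, -3.57 and -4.90 on the non-CL side. It was higher on the CL side in each pair, although the groups overlapped, and differed by 2.36 ± 1.1 (SE; limma unadjusted p = 0.0557). The unadjusted p was 0.011 in limma with the numbers as pairs. The difference was 1.55 without CL-side replicate 2, 1.45 without non-CL replicate 3 and 0.52 on the slide of replicate 1. IGFBP1, an insulin-like growth factor binding protein of the luteal-phase endometrium, had 0.09, -1.04 and 0.85 against 1.37, 0.17 and 2.11. It was lower on the CL side in each pair, with a difference of -1.25 ± 0.61 (SE; limma unadjusted p = 0.0669, or 0.031 with the numbers as pairs), which was -0.75 without CL-side replicate 2 and -0.80 without non-CL replicate 3. LTF, lactoferrin, differed by 0.56 ± 1.44 (SE), and by -0.15 without non-CL replicate 1.

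In the insulin-like growth factor system 10 of 14 genes had a positive difference, with a median of 0.29 that was 0.01 without CL-side replicate 2. IGFBP6 differed by 0.66 ± 0.33 (SE) and IGFBP4 by 0.32 ± 0.16, both with no overlap between the groups, and IGF1, the growth factor itself, by 0.37 ± 0.59, or -0.02 without CL-side replicate 2. Solute carriers, water channels and ion pumps had 11 of 25 positive (median -0.14). CFTR, a chloride channel of epithelia, differed by -1.13 ± 0.68 (SE). No gene of either list had an unadjusted p under 0.05, but with the numbers as pairs 2 higher genes (IGF2 and IGFBP6) and 1 lower gene (IGFBP1) of the growth factor list and 1 lower ion pump gene (ATP1B2) did. Over all genes the paired shares were 1.74% higher and 2.61% lower.

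Among developmental genes, the Wnt pathway had 8 of 10 positive (median 0.30, but 0.03 on the slide of replicates 2 and 3). FRZB, a secreted Wnt antagonist, had -2.40, -2.77 and -3.42 against -4.04, -3.40 and -4.81, and the groups met at CL-side replicate 3 and non-CL replicate 2. Its difference was 1.22 ± 0.43 (SE; limma unadjusted p = 0.0168, adjusted p = 1). FZD3, a Wnt receptor gene that is not in the list, went the other way, at -0.53 ± 0.17 (SE). HOX and uterine patterning genes had 1 of 7 positive (median -0.40), which was 0.55 on the slide of replicate 1. MSX1, a homeobox factor of the uterus, differed by -0.87 ± 0.30 (SE) on 1 CL-side and 2 non-CL values, since the other 3 spots carried outlier marks. It was -0.50 with those spots kept. HOXB4 differed by -0.47 ± 0.22 (SE), with all CL-side values below the non-CL values. Angiogenic factors and receptors had a median of 0.01 over 21 genes. ANGPT1 differed by -0.96 ± 0.35 (SE), well above background on 2 of 3 CL-side arrays, and by 0.29 with the authors' values.

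Among immune genes, macrophage markers were highest on CL-side replicate 2. Of 17 markers of macrophages and dendritic cells, 16 had a positive difference, with a median of 0.40. The pair medians were -0.10, 1.16 and 0.15, and the mean deviation was 0.74 on CL-side replicate 2 and between -0.38 and 0.02 on the other 5 arrays. FCGR1A, a high-affinity receptor for immunoglobulin G, differed by 1.0 ± 0.55 (SE), APOE, a lipoprotein that macrophages secrete, by 0.55 ± 0.34 and GPNMB by 0.66 ± 0.42. None of the 17 had an unadjusted p under 0.05.

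CCL19, a chemokine that draws lymphocytes and dendritic cells, had -2.03, -0.59 and -3.92 on the CL side and -5.58, -3.27 and -4.64 on the non-CL side. It was higher on the CL side in each pair, and the groups overlapped through CL-side replicate 3. The difference was 2.32 ± 0.84 (SE; limma unadjusted p = 0.0195, adjusted p = 1), or 1.52 without CL-side replicate 2. Over 27 cytokines, chemokines and receptors 17 were positive (median 0.11). IL15, a cytokine that sustains natural killer cells, differed by -0.84 ± 0.34 (SE) close to the floor and by 0.23 with the authors' values.

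Complement components had 13 of 17 positive, with a median of 0.26 that was -0.05 in pair 1 and -0.07 in pair 3. T and NK cell genes had 8 of 21 positive (median -0.03), B and plasma cells 1 of 9 (-0.10), granulocytes and mast cells 3 of 10 (-0.10), MHC class I and II genes 7 of 14 (0.00), and epithelial antimicrobial and mucosal defence 6 of 12 (-0.01). PRF1 was the only T and NK cell gene with an unadjusted p under 0.05. With the numbers as pairs 1 was higher and 3 were lower, against 1.74% and 2.61% of all genes. CD3G, a chain of the T cell receptor complex, differed by -0.86 ± 0.41 (SE), in the other direction from PRF1. CD3D of the same complex differed by 0.33, or 0 with the floor raised to -5, GNLY by -0.55 and GZMB by -0.30. Interferon-stimulated genes had 11 of 19 positive (median 0.01), with the ubiquitin-like ISG15 at 0.27 ± 0.32 (SE). PIGR, which carries immunoglobulins across epithelia, differed by 0.05 ± 0.89 (SE).

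**Figure D3:**
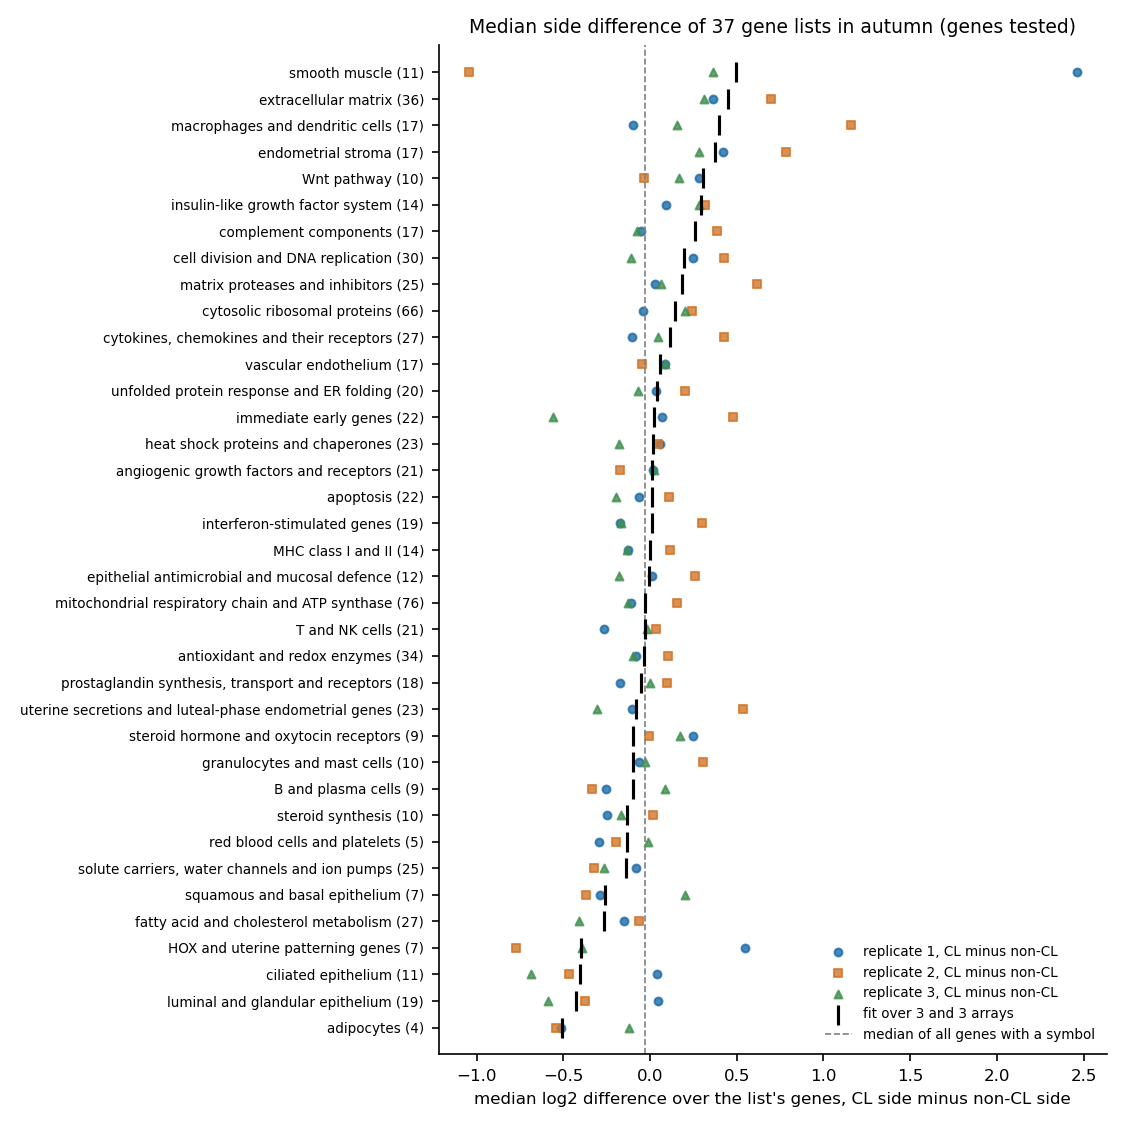
Median log2 difference, CL side minus non-CL side, of each of 37 gene lists (horizontal axis), as the median of the fitted differences (black bar) and within each same-numbered pair (coloured points), with the number of tested genes in brackets. The dashed line marks the median of all genes at -0.03. Matrix and stroma have all 3 pairs to the right of it, macrophages are carried by pair 2 (1.16), and the smooth muscle pairs run from -1.04 to 2.46.

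Signals of markers of other cell types differed between single samples. Smooth muscle markers, which can enter a biopsy with the muscle layer below the endometrium, had 9 of 11 positive and a median of 0.50. Their pair medians were 2.46, -1.04 and 0.36, and none had an unadjusted p under 0.05. ACTG2, the smooth muscle gamma actin, was named here after its values were seen. It had 3.76, 0.65 and -0.92 on the CL side and -1.06, 3.16 and -1.16 on the non-CL side. CL-side replicate 1 and non-CL replicate 2 were high and the other arrays low. Its difference was 0.85 ± 1.49 (SE).

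Markers of luminal and glandular epithelium lay on the lower side. Of 19, 15 had a negative difference, with a median of -0.43 and pair medians of 0.04, -0.38 and -0.59, and none had an unadjusted p under 0.05. EPCAM had 3.98, 2.91 and 3.81 on the CL side and 3.85, 4.09 and 4.30 on the non-CL side, a difference of -0.51 ± 0.26 (SE; limma unadjusted p = 0.0778). CL-side replicate 2 had the lowest value, and CL-side replicate 1 overlapped with the non-CL side. The mean deviation of the 19 markers was -0.04, -0.25 and -0.14 on the CL side and -0.10, 0.14 and 0.39 on the non-CL side. Matrix and stroma lists had the opposite direction in pairs 2 and 3, and the part of the stroma to epithelium ratio in either was not tested.

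Ciliated epithelium was highest on replicate 3 of both sides. Of 11 markers 9 had a negative difference (median -0.40), and the mean deviation was -0.70, -0.46 and 0.67 on CL-side replicates 1 to 3 and -0.71, -0.08 and 1.28 on the non-CL side. TEKT1, a tektin of the ciliary axoneme, differed by -1.14 ± 0.62 (SE), with an unadjusted p of 0.0066 in limma with the numbers as pairs, and by -0.19 with the authors' values. The list median was 0.28 without non-CL replicate 3. Squamous and basal epithelium had 2 of 7 positive (median -0.26), vascular endothelium 12 of 17 (0.06), red blood cells and platelets 0 of 5 (-0.14) and adipocytes 1 of 4 (-0.51). With the authors' values the medians turned positive for squamous epithelium (0.08) and adipocytes (0.20), as for solute carriers (0.07), B and plasma cells (0.06) and granulocytes (0.24). The median over all genes was itself 0.06 with those values.

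Most genes on the lower side were dim. Of the 47 lower genes, 29 stood well above background on each of the 6 arrays. On at least 1 CL-side array, 18 did not. Their median level over the arrays was -6.30, against -2.31 for the 52 higher genes and -1.17 for all genes. All 52 higher genes kept their direction after normexp correction and with the authors' values. All 47 lower genes kept it after normexp correction, but 19 did so with the authors' values. Over all genes the median difference was 0.06 with the authors' values, against -0.03 from the scanner signals.

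DCAF16, a substrate receptor of a ubiquitin ligase, entered the test only through the non-CL side, where it was above background. Its log2 signal was -7.28, -7.02 and -7.01 on the CL side and -6.47, -5.63 and -5.69 on the non-CL side. DCAF16 was well above background on 1 of 3 CL-side arrays, so its fitted difference of -1.17 (limma adjusted p = 1) is one against signals near the floor, and it was 0.26 with the authors' values. The same holds for ARG2, the mitochondrial arginase, and the transcription factor gene FOXL2, each well above background on 1 CL-side array and at the floor on 2. With the authors' values they differed by 0.27 and 0.21, in the other direction.

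Other lower genes stood well above background on each of the 6 arrays. TBC1D22A had -4.89, -4.79 and -4.96 on the CL side and -4.14, -4.43 and -4.27 on the non-CL side. The groups stood apart with little spread, and the difference was -0.60 ± 0.16 (SE; limma unadjusted p = 0.00345, adjusted p = 1), or -0.12 with the authors' values. VSNL1, a neuronal calcium sensor, differed by -1.13 ± 0.35 (SE), GPX5, a glutathione peroxidase, by -0.74 ± 0.24 and FZD3, a Wnt receptor, by -0.53 ± 0.17. With the authors' values these 3 differed by -0.05, 0.20 and -0.18. HAS1, which makes hyaluronan, is named after its values were seen. It was not well above background on any CL-side array and entered the test only through the non-CL side. Its fitted mean was 3.88-fold higher on the non-CL side (limma adjusted p = 1), against signals near the floor. That value rests on non-CL replicate 1, with -2.85 there and -7.06 and -6.06 on the others.

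**Figure D4:**
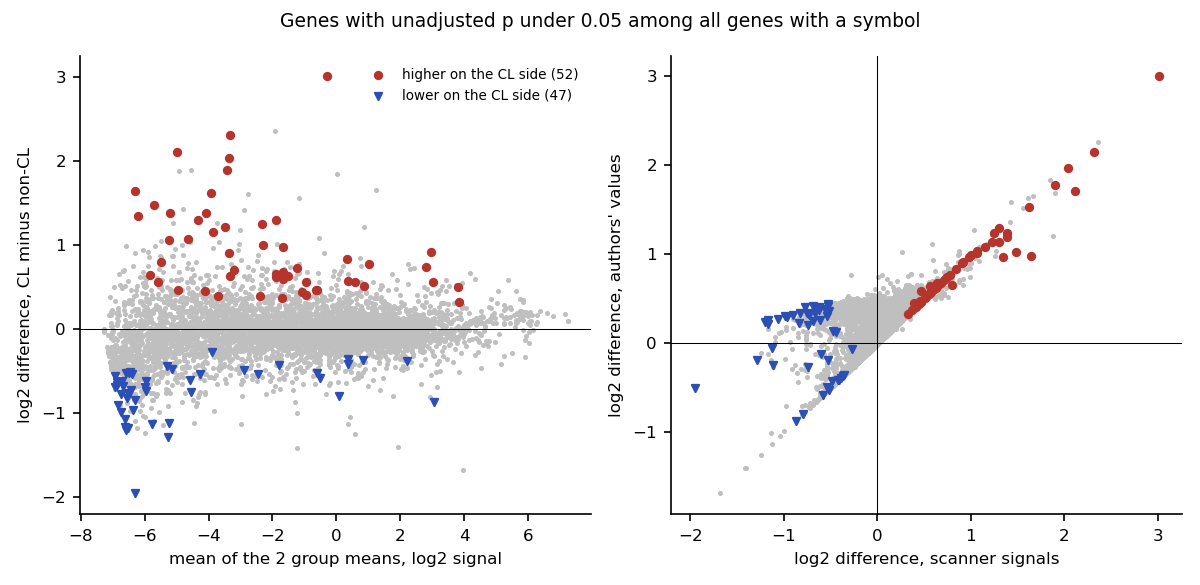
Left, the log2 difference between the sides (vertical axis) against the mean of the group means (horizontal axis, log2 signal) for 4951 genes; right, the difference from the authors' values against that from the scanner signals. The 47 lower genes (blue) gather at low signal, and 19 of them stay below 0 with the authors' values, while the 52 higher genes (red) all stay above 0.

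Genes of protein synthesis lay slightly higher and most of those of lipid metabolism lower on the CL side, with none past the threshold. Cytosolic ribosomal protein genes had 63 of 66 positive, with a median of 0.15 and pair medians of -0.04, 0.24 and 0.20, but 0 with an unadjusted p under 0.05. RPL5 lay at 6.0, 6.10 and 5.90 against 5.58, 5.72 and 5.72, a difference of 0.32 ± 0.17 (SE) with no overlap. Mitochondrial respiratory chain genes had 28 of 76 positive (median -0.03). Fatty acid and cholesterol metabolism had 8 of 27 positive (median -0.27), with a negative median in each pair, at -0.15, -0.06 and -0.41, and 12 genes negative in all 3 pairs. Of all 4951 genes, 2745 had a negative difference and 868 were negative in all 3 pairs. FDFT1, squalene synthase, had 2.97, 2.56 and 3.06 against 3.34, 3.08 and 3.68 and differed by -0.51 ± 0.27 (SE), and PLIN2, a lipid droplet protein, by -0.29 ± 0.16. FABP5, the member with the smallest p, went the other way. It differed by 0.55 ± 0.27 (SE) and was higher on the CL side in each pair. APOE, also of this list, differed by 0.55. ACAT2, the acetyl-CoA acetyltransferase gene named above, is not in the list and was also higher, by 0.57 ± 0.16 (SE), at low signal. The list had no member with an unadjusted p under 0.05, and its median was -0.08 with the authors' values.

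Of the remaining lists, steroid synthesis had 3 of 10 positive (median -0.13), immediate early genes 12 of 22 (0.02), heat shock proteins 12 of 23 (0.02), the unfolded protein response 12 of 20 (0.04), antioxidant enzymes 15 of 34 (-0.03) and apoptosis 12 of 22 (0.01). RGS2, a regulator of G protein signalling in the immediate early list, had 3.89, 3.35 and 2.99 on the CL side and 2.49, 2.66 and 2.33 on the non-CL side. Its groups did not overlap, and it was the only gene of these 6 lists with an unadjusted p under 0.05, at a difference of 0.92 ± 0.41 (SE; limma adjusted p = 1).

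Whether the side difference in autumn departed from that in summer was tested as an interaction in the same fit. No probe of 12102 (0.0%) passed limma's adjusted threshold, and the smallest adjusted p was 0.9994. An unadjusted p under 0.05 was reached by 225 (1.86%), fewer than the 605 expected by chance in the side comparison. For FN1 the side difference was 0.84 in autumn and -0.41 ± 0.28 (SE) in summer, which gave an interaction of 1.25 ± 0.40 (SE; limma unadjusted p = 0.00959). For CTHRC1 it was 0.07 ± 0.50 (SE) in summer, with an interaction of 1.83 ± 0.70 (limma unadjusted p = 0.0248). COL1A1 had -0.41 ± 0.39 (SE) in summer and an interaction of 1.41 ± 0.56 (limma unadjusted p = 0.0285). TBC1D22A had 0.28 ± 0.16 (SE) in summer and an interaction of -0.88 ± 0.23 (limma unadjusted p = 0.00281). The matrix list had a median of -0.23 and the stroma list one of -0.30 in summer. The difference of SERPINA14 in summer was 0.52 ± 0.89 (SE), and its interaction of 2.49 ± 1.26 had a limma unadjusted p of 0.0748. FN1, CTHRC1, COL1A1, TBC1D22A and SERPINA14 had a small p in the autumn contrast, which is 1 term of the interaction. This favours small interaction p-values, which are therefore no separate support for these genes. PIGR had 3.40 ± 0.89 (SE) in summer against 0.05 in autumn, an interaction of -3.35 ± 1.26 (limma unadjusted p = 0.0232).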

How the data were processed

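Each sample's total RNA (400 ng, per the labels) was labelled with Cy3 and hybridised to a 1-colour Agilent bovine array. The deposited scanner files, read with Feature Extraction 9.5.1.1 per the file headers, give the processed signal as a background-subtracted intensity. The authors also deposited log2 values, with no stated treatment of low signals. They served as an alternative.

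Processed signals of non-control probes were divided by each array's 75th percentile, floored at -7.28 after scaling and put on the log2 scale, and outlier-marked spots were left out. The fit kept 12131 probes that every array of 1 or both sides in autumn measured well above background. Symbols came from the files' accessions and names through the RefSeq gene table of ARS-UCD2.0, used for names only. Of 15208 probes, 6170 had a symbol, 48 only a locus name and 8990 none. A gene with several probes was given by the one with the highest mean over 12 arrays.

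All 12 arrays entered 1 fit of 4 group means in limma 3.58.1 (R 4.3.3; lmFit, eBayes, 8 residual degrees of freedom), tests were two-sided, and p-values were adjusted by Benjamini-Hochberg over all probes. The fit was tested on simulated data. Deviations of same-numbered samples from their group means correlated at 0.29, 0.14 and 0.38, against -0.27 to -0.04 for samples of different numbers. Deviations cancel within a side, so positive values for the same number bring negative values for different numbers, and the contrast is no separate evidence of pairs. The numbers were also used as pairs, as an alternative, although the labels do not state pairs. The 2 arrays of replicate 1 were the only autumn arrays on their slide, so slide and pair cannot be told apart there.

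The members and the 37 gene lists were chosen with earlier results of these data known. Lists are described by counts and medians, without a test. Named were the 12 genes with the smallest p in each direction, up to 3 genes with the smallest p of each list, and 10 fixed genes (PGR, ESR1, OXTR, PTGS2, PTGES, IGF1, SERPINA14, ISG15, PIGR and LTF); not every named gene is printed. The number of arrays limits the precision.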

Additional observations from a re-analysis of the deposited data

How the results depend on the processing

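No probe passed limma's adjusted threshold of 0.05 in any of the other fits of the autumn comparison or of the interaction with season, except that 6 passed without CL-side replicate 3, so that the range over the fits that leave out 1 of the 6 autumn arrays is 0 to 6. The count of probes with an unadjusted p under 0.05, 229 in all, was 397 on the 6 autumn arrays alone, 479 without the dim summer array (CL-side summer replicate 2), 632 on the slide of replicates 2 and 3 alone and 354 with no filter on dim probes. With the replicate number as a block it was 529 over 12 arrays and 722 over the 6 autumn arrays, and the interaction count was 523. Leaving out 1 of the 6 autumn arrays gave 134 to 466. Other background corrections, scalings and filters gave counts within 1.5 times of 229.

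Of the 36 named genes with an unadjusted p under 0.05, 10 changed sign, each of them only with the authors' log2 values, over 782 alternative values in all. The differences were then 0.26 for DCAF16, 0.27 for ARG2, 0.40 for LIN7B, 0.34 for SUPT4H1, 0.21 for FOXL2, 0.38 for HNRNPK, 0.20 for GPX5, 0.42 for RNF182, 0.23 for IL15 and 0.29 for ANGPT1. All 10 were lower on the CL side in the scanner signals, and the cause was not tested. The medians of the matrix, stroma and cell division lists stayed positive in all 22 alternatives, at 0.31 to 0.57, 0.24 to 0.50 and 0.14 to 0.41. A floor raised to -5, chosen after seeing the data, gave 0 probes past the threshold. Genes near the floor have no ordered values there, and signal over background limits what can be read from the lower side.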
